A study of Mus musculus with 2 samples.

Results

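The genes described are 8 listed as genes of the sinusoidal endothelium of the liver, *Stab1*, *Stab2*, *Clec4g*, *Lyve1*, *Fcgr2b*, *Kdr*, *Flt4* and *Ptprb*, and 2 vasoactive genes of vessels, *Edn1* and *Kcnj2*. They were taken by gene symbol, 10 of the 32285 genes measured, and all 10 had at least 20 UMIs in endothelial nuclei. A nucleus was called endothelial when it held at least 1 UMI of *Ptprb*, *Kdr* or *Clec4g* and its marker UMIs were not led by another cell type, which gave 784 of 8659 nuclei in the library labelled Flox and 1198 of 9801 in the library labelled HKO. The level of a gene is the sum of its UMIs over a set of nuclei, scaled to the total of that set and given as CPM. *Ptprb*, *Kdr* and *Clec4g* helped choose the nuclei, so their own levels there are a description. *Ptprb* is counted among the 8 sinusoidal genes by the list and not by its values. It was higher in endothelial nuclei with a UMI of *Vwf*, a gene of larger vessels, than in those without.

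The nuclei came from livers of male C57BL6/J mice with diet-induced metabolic dysfunction-associated steatohepatitis (MASH). The diet gave 40% of its energy as fat and 20% as fructose, held 2% cholesterol, and was fed for 5 months from an age of 10 to 12 weeks. Mice of both groups carried floxed *Themis* alleles; Flox mice (*Themis* flox/flox) had no Cre, and HKO mice (*Themis* Alb-Cre) had Cre under the albumin promoter, which acts in hepatocytes, so that the endothelium was not the cell in which the gene was to be deleted. The title of the Flox library reads WT, and its genotype label is the one followed here. Livers of several mice were pooled into 1 library per group, nuclei were sorted, and 3′ snRNA-seq was run on the 10x platform. With 1 library per group no value has a replicate check and no test was made, and the intervals given, at the 95% level, cover the error of counting and nothing else. Where a pair of values stands together, the one from Flox comes first.

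Sinusoidal endothelial cells line the liver's capillaries as a thin, perforated sheet without a continuous basement membrane. They clear waste from the blood through scavenger and lectin receptors, and they lose this specialised state in fibrotic liver, when they come to look more like ordinary capillary endothelium. Vasoactive genes set the tone of the vessels, and endothelin from endothelial cells contracts stellate cells and vascular smooth muscle through its receptors.

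The libraries held 58171337 and 40475938 UMIs, and the kept nuclei had median depths of 5959 and 1971 UMIs. Depth differed less among endothelial nuclei, at medians of 1327 and 974 UMIs, with 1129080 and 1261071 UMIs in all. *Themis* in hepatocyte nuclei was not lower in the library labelled HKO, at 162 CPM (159 to 166) in the library labelled Flox and 245 CPM (239 to 251) in the other, so each direction below is one between libraries as labelled. Whether the counted 3′ reads lie outside the deleted part of the gene is not given in the sources used here. There were 27 barcodes present in both libraries. The 12 endothelial markers that typed the nuclei, none of them among the 10 genes, summed to 8934 and 8100 CPM in endothelial nuclei. In hepatocyte nuclei they summed to 17.2 and 24.2 CPM. These markers chose the nuclei, so the levels are a description and not a check. Of the endothelial nuclei, 98.0% and 97.7% also fell in clusters named endothelial. The clusters were made without the 10 genes and were named with the same 12 markers. Hepatocyte markers summed to 1864 and 1258 CPM in endothelial nuclei, and macrophage markers to 90.3 and 112 CPM.

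The first question was how the 10 genes differed in endothelial nuclei between mice with and without hepatocyte Cre. Both vasoactive genes were higher in the library labelled HKO, and the sinusoidal genes were a little lower in it. *Edn1*, which encodes endothelin-1, a strong vasoconstrictor, was at 82.4 CPM (66.5 to 101) in the library labelled Flox and 179 CPM (157 to 204) in that labelled HKO, from 93 and 226 UMIs. The ratio, HKO over Flox, was 2.18 (1.70 to 2.80). *Kcnj2*, which encodes the inward rectifier potassium channel Kir2.1, a channel that holds the membrane potential of endothelial cells, was at 21.3 CPM (13.6 to 31.6) in Flox nuclei and 73.0 CPM (58.8 to 89.5) in HKO nuclei. These levels came from 24 and 92 UMIs, and their ratio was 3.43 (2.17 to 5.63). For both genes the intervals of the libraries did not overlap. The same held for *Clec4g*, *Lyve1*, *Fcgr2b*, *Kdr*, *Flt4* and *Ptprb*, in the other direction, and not for *Stab1* and *Stab2*. The share of all genes with intervals apart is not given here. Of 9695 genes with at least 20 UMIs, 118 had a log2 ratio at or above that of *Edn1* and 18 at or above that of *Kcnj2*.

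With a call at a 1.5-fold difference of CPM + 1, 2 of the 10 genes were higher in the library labelled HKO, *Edn1* and *Kcnj2*, where 7.3% of all genes were. None of the 10 was lower past this fold, where 11.6% of all genes were. No gene was tested, so these counts are of size alone.

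The scavenger and lectin receptors were each higher in the library labelled Flox at this scaling, though *Stab1* and *Stab2* were not when scaled to other endothelial markers. *Stab1* and *Stab2* encode the stabilins, which take up modified lipoproteins and hyaluronan. *Stab1* was at 981 CPM (924 to 1041) in Flox nuclei and 894 CPM (842 to 947) in HKO nuclei, with a ratio of 0.911 (0.837 to 0.990). *Stab2* was at 1579 and 1445 CPM, with a ratio of 0.915 (0.857 to 0.977). *Fcgr2b*, the Fc receptor through which these cells remove immune complexes, was at 1682 and 1447 CPM, with a ratio of 0.860 (0.806 to 0.918). *Lyve1*, a hyaluronan receptor, was at 471 and 384 CPM, with a ratio of 0.815 (0.719 to 0.923). *Clec4g*, a C-type lectin also known as LSECtin, differed most of the 8 sinusoidal genes, at 724 CPM and 497 CPM with a ratio of 0.687 (0.618 to 0.763). Even so, 13.4% of all genes had a log2 ratio at or below that of *Clec4g*.

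The VEGF receptors and *Ptprb* showed the same order at this scaling. *Kdr*, the main VEGF-A receptor of endothelium, was at 1052 and 863 CPM, with a ratio of 0.820 (0.755 to 0.891). *Flt4*, the VEGF-C receptor, was at 406 and 334 CPM, with a ratio of 0.823 (0.719 to 0.942). *Ptprb*, the vascular endothelial phosphatase that acts on the angiopoietin receptor Tie2, was at 4813 and 3725 CPM, with a ratio of 0.774 (0.744 to 0.805).

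The median log2 ratio of the 8 sinusoidal genes was -0.28, against -0.05 over all genes, whose quartiles were -0.34 and 0.22, so that the sinusoidal genes lay within the middle range of all genes apart from *Clec4g* and *Ptprb*, at -0.54 and -0.37. All 8 were lower in the library labelled HKO with TMM factors and with DESeq2 size factors, but when the libraries were scaled to the 12 other endothelial markers *Stab1* and *Stab2* were no longer lower, at log2 ratios of 0.01 and 0.01. That scaling moved the median of all genes to 0.08.

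**Figure D1:**
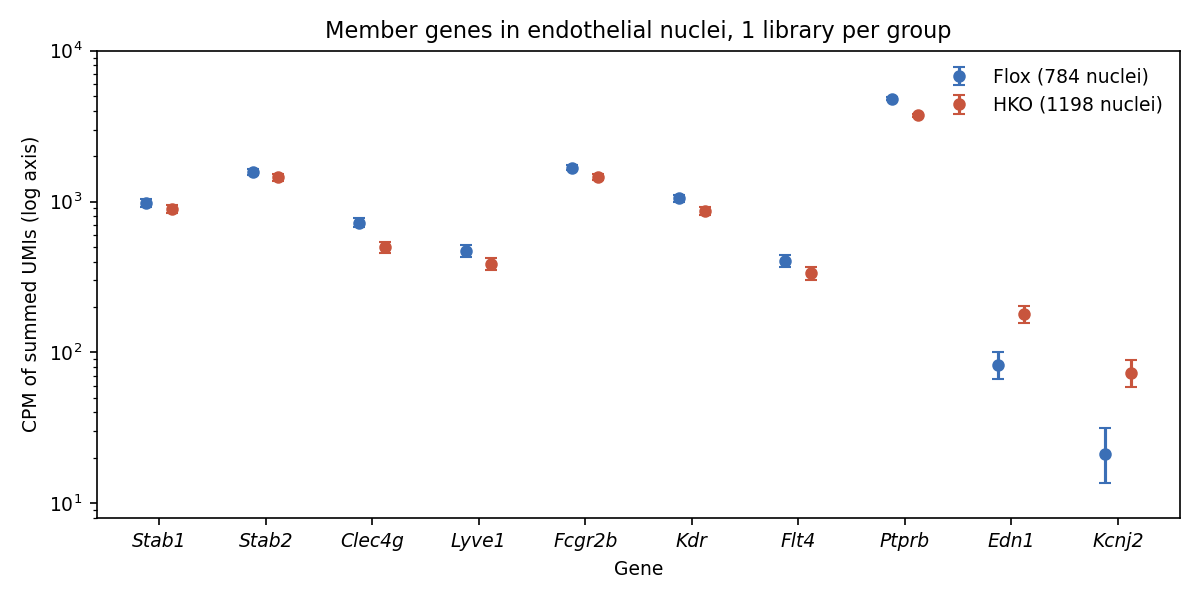
CPM of each gene (log axis) in endothelial nuclei of the library labelled Flox (784 nuclei, blue) and of that labelled HKO (1198 nuclei, red), with bars for exact 95% Poisson intervals. Edn1 and Kcnj2 are higher in the HKO library, at 179 against 82.4 CPM and 73.0 against 21.3 CPM, and the other 8 genes are slightly lower in it at this scaling, though Stab1 and Stab2 are not when scaled to other endothelial markers.

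The choice of nuclei changed the direction of the sinusoidal genes and not that of the vasoactive pair. When endothelial nuclei were chosen by the 12 other markers alone, with no use of the 10 genes, 788 and 1254 nuclei were kept, against 784 and 1198. All 8 sinusoidal genes stayed lower in the library labelled HKO in this little changed set, and *Clec4g* passed the 1.5-fold call. When every nucleus with a UMI of *Ptprb*, *Kdr* or *Clec4g* was kept, 317 and 328 nuclei not typed as endothelial were added. The 8 sinusoidal genes were then all at or above equality, with a median log2 ratio of 0.25. Those added nuclei held 218 and 187 of hepatocyte type, and hepatocyte nuclei had median depths of 7412 and 5693 UMIs against 1327 and 974 in endothelial nuclei. Their part in the change of sign was not tested. In the unsupervised clusters *Stab1*, *Stab2*, *Fcgr2b* and *Flt4* also had log2 ratios above 0, at 0.17, 0.13, 0.05 and 0.02, and with the nuclei typed otherwise by their markers left out of those clusters all 8 were below 0 again, with a median of -0.29.

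*Edn1* and *Kcnj2* were higher in the library labelled HKO under each of the 20 alternatives run. Their log2 ratios were 1.11 and 1.73, and over the alternatives *Edn1* ranged from 0.80, in nuclei thinned to 500 UMIs, to 1.74, and *Kcnj2* from 1.41, with a pseudocount of 10 CPM, to 2.18. *Clec4g* ranged from -0.59 to 0.00, *Stab1* from -0.17 to 0.40 and *Stab2* from -0.15 to 0.38.

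**Figure D2:**
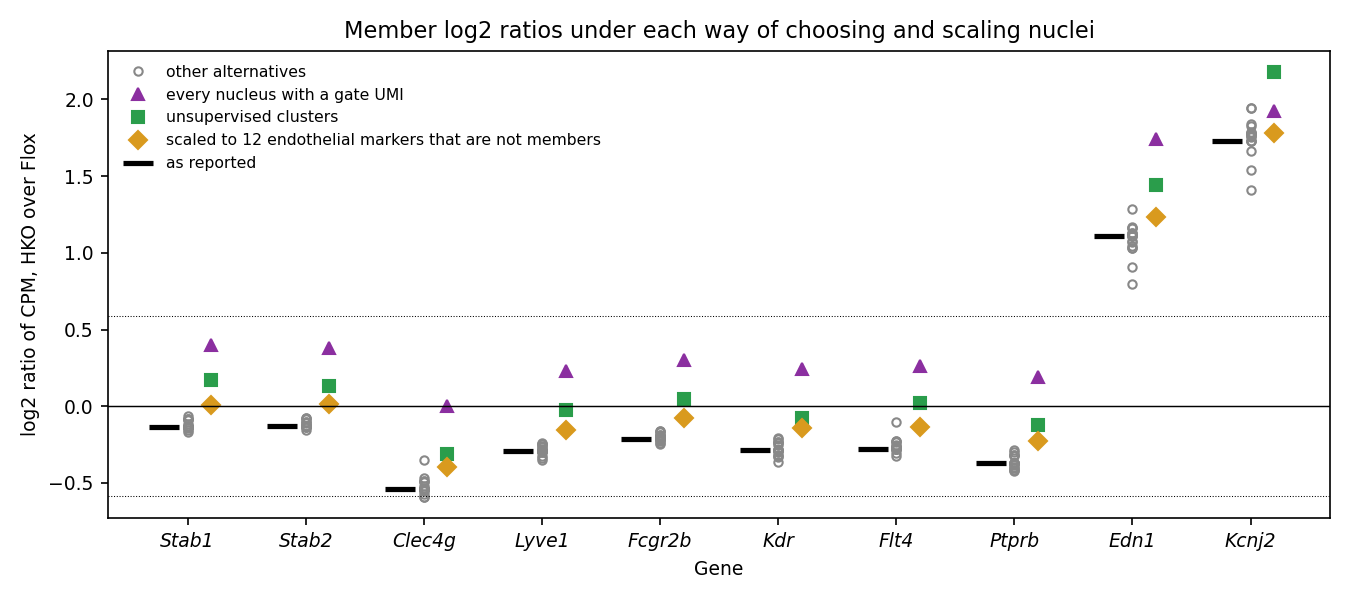
Log2 ratio of CPM, HKO over Flox, for each gene as reported (black bar) and under each alternative (grey circles), with 3 alternatives marked by shape and colour. Edn1 and Kcnj2 stay above the dotted line of a 1.5-fold difference throughout, while the 8 sinusoidal genes are at or above 0 when every nucleus with a gate UMI is kept (triangles).

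The stretches of genome just before the starts of these genes are shown for 4 of them, the vasoactive pair, *Stab2*, which was the most reduced with *Vwf* of the genes seen on both sides of that split, and *Clec4g*, the sinusoidal gene that differed most between libraries. The windows are the 250 bases before the annotated start, read 5′ to 3′ on the strand of the gene, from RefSeq on GRCm38.p6, where 8 of the 10 genes had a window. *Edn1* lies on the plus strand and its window is chr13:42301226-42301475. *Kcnj2* lies on the plus strand with the window chr11:111065914-111066163. *Stab2* and *Clec4g* lie on the minus strand, with the windows chr10:87007943-87008192 and chr8:3720652-3720901. Capitals mark matches, on either strand, to the GATA motif AGATAA, the AP-1 motif TGANTCA, the core of the hypoxia response element ACGTG, the ETS motif AGGAAG or the TATA box TATAAA.
Edn1: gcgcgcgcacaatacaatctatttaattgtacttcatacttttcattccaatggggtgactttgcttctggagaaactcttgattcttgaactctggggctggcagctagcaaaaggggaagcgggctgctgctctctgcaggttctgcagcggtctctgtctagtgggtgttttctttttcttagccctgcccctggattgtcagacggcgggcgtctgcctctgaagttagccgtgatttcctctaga
Kcnj2: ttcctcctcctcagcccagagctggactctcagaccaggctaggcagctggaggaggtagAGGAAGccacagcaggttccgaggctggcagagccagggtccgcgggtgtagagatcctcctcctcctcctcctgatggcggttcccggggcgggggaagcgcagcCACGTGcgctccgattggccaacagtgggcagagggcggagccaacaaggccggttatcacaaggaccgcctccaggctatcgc
Stab2: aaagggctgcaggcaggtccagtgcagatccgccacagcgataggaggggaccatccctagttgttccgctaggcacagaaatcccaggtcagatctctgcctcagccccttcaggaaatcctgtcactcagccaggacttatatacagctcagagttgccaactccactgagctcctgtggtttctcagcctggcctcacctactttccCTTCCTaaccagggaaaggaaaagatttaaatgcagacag
Clec4g: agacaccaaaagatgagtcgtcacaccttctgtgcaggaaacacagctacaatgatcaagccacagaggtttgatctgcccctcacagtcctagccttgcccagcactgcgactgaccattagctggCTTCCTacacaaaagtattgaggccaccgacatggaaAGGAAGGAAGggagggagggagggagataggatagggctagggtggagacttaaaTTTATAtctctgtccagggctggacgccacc
The *Edn1* window held none of the 5 motifs. Within the 50 bases after its start, the reverse complement of the GATA motif began at base 9 and that of the hypoxia response core at base 22. The *Kcnj2* window held the hypoxia response core on both strands, in overlapping matches that began 84 and 83 bases before the start, and an ETS match 190 bases before it. The *Stab2* window held 1 ETS match, 40 bases before the start. The *Clec4g* window held 3 ETS matches, 123, 86 and 82 bases before the start, of which the last 2 overlap. It also held the reverse complement of the TATA box, TTTATA, 31 bases before the start, so that motif reads on the strand opposite to the gene. Of all 32851 windows, 29.5% held the ETS motif, 16.6% the hypoxia response core, 12.4% the TATA box, 9.99% the GATA motif and 6.75% the AP-1 motif. A match is a run of letters and was not tied to any measurement here.

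The genes lie on 8 chromosomes in GENCODE M21 annotation of GRCm38, and all are protein coding. *Edn1* spans chr13:42301476-42307990 and *Kcnj2* chr11:111066164-111076821, both on the plus strand. *Stab2* spans chr10:86841198-87008025 and *Clec4g* chr8:3707064-3720651, both on the minus strand. On the same strand only *Ptprb* overlapped other annotated genes, *Gm47625* and *Gm26495*, so its reads could in part be shared with them. On the other strand *Edn1* overlapped *Gm47118*, and *Stab1*, *Stab2*, *Clec4g* and *Fcgr2b* also overlapped annotated genes.

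The second question was how the genes divided between nuclei of larger vessels and those of sinusoids. *Vwf*, which encodes von Willebrand factor and marks larger vessels, had a UMI in 65 of 784 endothelial nuclei (8.29%) and 106 of 1198 (8.85%), and a nucleus without a UMI may still have expressed it. *Edn1* and *Ptprb* were higher in nuclei with *Vwf*, and the other 8 genes lower or unseen, in both libraries. In the library labelled Flox, 2 of 10 genes were at least 1.5-fold higher with *Vwf*, where 19.9% of 7505 genes were, and 8 of 10 at least 1.5-fold lower, where 27.7% were. In that labelled HKO the counts were again 2 and 8, where 18.8% and 26.5% of 7728 genes were called. The median log2 ratio, with over without *Vwf*, was -2.11 and -1.76 for the 10 genes against -0.03 and -0.07 for all genes. Depth was alike on both sides of the split, at medians of 1272 and 1331 UMIs in the library labelled Flox and 998 and 972.5 in that labelled HKO, with *Vwf* first. *Kcnj2* is among the 8 in each library through 0 UMIs with *Vwf*.

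*Edn1* was at 567 CPM (425 to 741) with *Vwf* and 38.6 CPM without it in the library labelled Flox, a ratio of 14.7 (9.55 to 22.7). HKO-labelled nuclei had 970 CPM (802 to 1162) with *Vwf* against 95.6 CPM without, a ratio of 10.1 (7.75 to 13.3). Nuclei with *Vwf* held 53 of its 93 UMIs and 117 of its 226, while 47.8% and 42.9% of the nuclei with *Edn1* held a *Vwf* UMI. It was higher in the library labelled HKO on both sides of the split, with ratios of 1.71 (1.23 to 2.41) with *Vwf* and 2.47 (1.71 to 3.65) without it. *Vwf* itself was at 123 and 203 CPM over all endothelial nuclei, a ratio of 1.65 (1.34 to 2.04). The shares of nuclei with a *Vwf* UMI were close without thinning, at unequal median depths of 1327 and 974 UMIs. Shares of *Vwf* at a common depth are not given here.

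*Kcnj2* had no UMI in any nucleus with *Vwf*, in either library. In the library labelled Flox, 0 UMIs allow up to 32.1 CPM, which is above the 23.2 CPM of nuclei without *Vwf*, so that no difference was detectable at this depth. In that labelled HKO the limit was 24.9 CPM, below the 80.7 CPM (65.0 to 98.9) of nuclei without *Vwf*. A UMI of both the potassium channel gene and the endothelin gene was held by 1 and 3 nuclei.

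Of the genes seen on both sides of the split, *Stab2*, the hyaluronan scavenger receptor, was the most reduced with *Vwf* in either library. It was at 1704 CPM without *Vwf* and 193 CPM (114 to 304) with it in the library labelled Flox, and at 1585 and 116 CPM (63.4 to 195) in that labelled HKO, which is 8.85-fold and 13.7-fold lower. The lectin gene *Clec4g* was 6.06-fold and 3.80-fold lower and *Lyve1* 5.25-fold and 8.43-fold lower. *Flt4* was 4.50-fold and 3.08-fold lower, and *Fcgr2b* 4.20-fold and 4.38-fold lower. *Kdr* and *Stab1* were lower by less. *Kdr* was 2.81-fold and 1.95-fold lower, and *Stab1*, at 1015 against 610 CPM and 927 against 580 CPM, was 1.66-fold and 1.60-fold lower. *Ptprb* went the other way, at 4605 CPM without and 7112 CPM with *Vwf* in the library labelled Flox (ratio 1.54, 1.42 to 1.68) and at 3488 and 5960 CPM in that labelled HKO (ratio 1.71, 1.58 to 1.85). *Ptprb* helped choose these nuclei, so its levels here are a description, and in nuclei thinned to 500 UMIs its log2 ratio in the library labelled HKO was 0.41, short of a 1.5-fold difference.

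**Figure D3:**
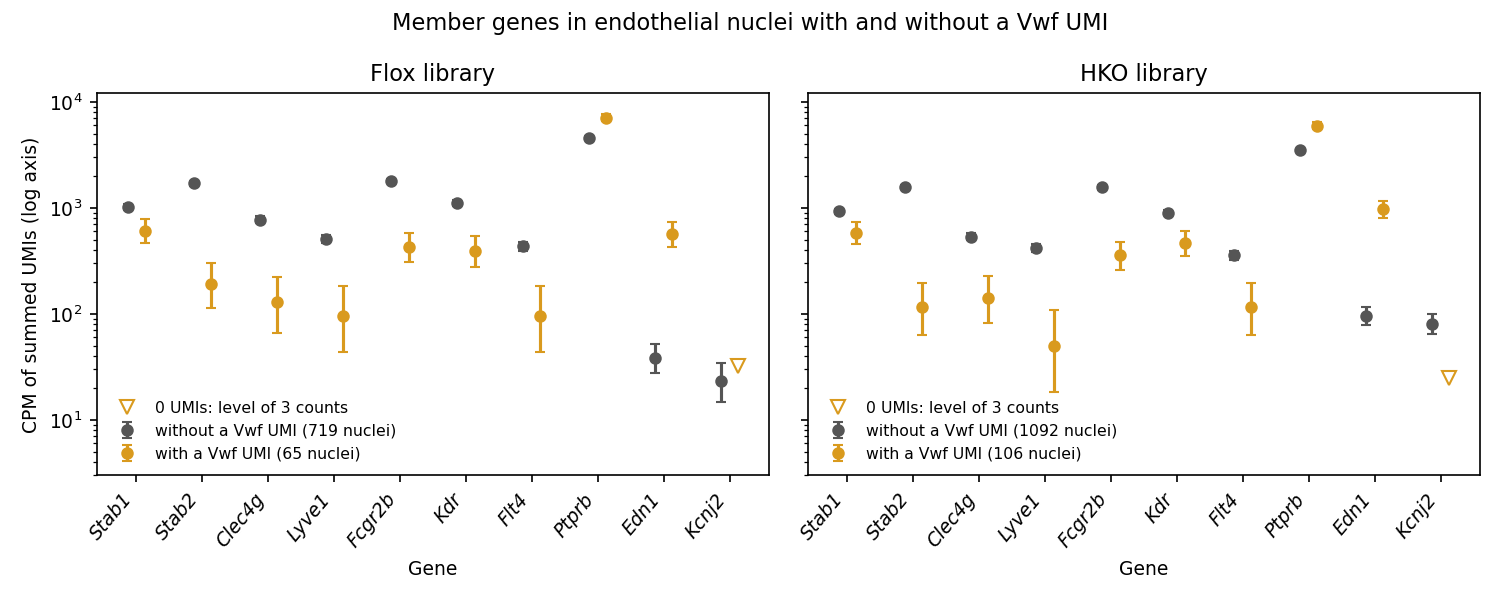
CPM of each gene (log axis) in endothelial nuclei without (grey) and with (orange) a Vwf UMI, in the library labelled Flox (left) and that labelled HKO (right), with exact 95% Poisson intervals; an open triangle marks a gene with 0 UMIs, at the level of 3 counts. Edn1 and Ptprb are higher with Vwf in both libraries, the 7 other sinusoidal genes are lower, and Kcnj2 has no UMI with Vwf.

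A split by cluster gave the same division, but it was not independent of the split by *Vwf* UMIs. *Vwf* was not left out of the genes offered to the clustering, and the cluster was picked by its *Vwf* level. It held 56 of the 65 and 96 of the 106 endothelial nuclei with a *Vwf* UMI. In each library 1 unsupervised cluster was led by *Vwf*, and it held 91 and 153 of the endothelial nuclei. In it *Stab2* had 3 and 8 UMIs, at 25.4 CPM (5.25 to 74.3) and 51.4 CPM (22.2 to 101), against 1760 and 1641 CPM in the other endothelial nuclei. *Edn1* was at 475 and 957 CPM in the cluster and 36.6 and 69.7 CPM outside it, and *Kcnj2* again had no UMI in the cluster. Between libraries the ratio of *Edn1* was 2.02 (1.47 to 2.79) within the cluster and 1.90 (1.27 to 2.90) outside it, so the difference was present in both. *Kcnj2* outside the cluster had a ratio of 3.51 (2.22 to 5.75). *Stab1* was the gene whose division was weakest there, 1.37-fold and 1.53-fold lower in the cluster.

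*Edn1* had a UMI in 46 Flox-labelled and 119 HKO-labelled endothelial nuclei, which are 5.87% (4.33 to 7.75) and 9.93% (8.30 to 11.8). After nuclei were thinned to 500 UMIs the shares were 3.44% (2.28 to 4.97) and 6.26% (4.96 to 7.78). Nuclei with fewer than 500 UMIs were left as they were, so depth was capped and not made equal. In hepatocyte nuclei thinned in the same way, which are not known to express it, 0 of 5928 and 2 of 4679 had a UMI, and 0 of 5928 allows a share of up to 0.0506%. A larger share of nuclei held the gene in the library labelled HKO, with intervals that met at this depth and did not overlap in nuclei thinned to 1000 UMIs, where the shares were 3.88% (2.55 to 5.63) and 8.91% (6.66 to 11.6). Thinning to 1000 UMIs left out 114 of 784 and 648 of 1198 nuclei, which were shallower. Nuclei with *Edn1* held up to 5 and up to 16 UMIs of it, with means of 2.02 and 1.90, and 54.3% and 56.3% of them fell in the cluster led by *Vwf*.

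Nuclei with *Edn1* were higher in some other genes of vessels and not in all. *Rspo3*, a Wnt-enhancing ligand of central vein endothelium, was 9.87-fold (8.45 to 11.5) and 10.2-fold (8.60 to 12.2) higher in them than in endothelial nuclei without *Edn1*. *Bmp4*, a BMP ligand, was 18.4-fold (9.86 to 34.7) and 14.9-fold (10.2 to 22.0) higher. *Fbln2* was 5.77-fold (3.61 to 9.01) and 9.32-fold (6.43 to 13.5) higher. *Efnb2* was not higher, with ratios of 0.580 (0.247 to 1.16) and 0.931 (0.601 to 1.39). *Cd34* had 0 and 4 UMIs in nuclei with *Edn1*, and its ratio in the library labelled HKO was 1.02 (0.262 to 2.88). *Stab2* was 2.45-fold and 2.89-fold lower in them, *Fcgr2b* 2.06-fold and 2.11-fold lower, and *Clec4g* 3.33-fold and 2.07-fold lower. *Stab1* was closer on both sides, at 884 and 988 CPM in the library labelled Flox (with *Edn1* first, ratio 0.895, 0.687 to 1.15) and 662 and 922 CPM in that labelled HKO (0.718, 0.573 to 0.890).

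*Kcnj2* had a UMI in 23 and 67 endothelial nuclei, or 2.93% (1.87 to 4.37) and 5.59% (4.36 to 7.05), and in 1.28% (0.613 to 2.33) and 3.67% (2.68 to 4.90) after thinning to 500 UMIs. In nuclei thinned to 1000 UMIs the shares were 2.24% (1.26 to 3.67) and 4.55% (2.96 to 6.64), with intervals that overlapped. Hepatocyte nuclei had shares of 0.0843% and 0.0427%, from 5 and 2 nuclei. In most nuclei the gene was held by a single UMI, 22 of 23 in the library labelled Flox and 51 of 67 in that labelled HKO, and at most by 2 and 7.

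Nuclei with *Kcnj2* were higher in *Stab2* and lower in *Rspo3*, while the other sinusoidal genes did not move together. *Stab2* was 1.46-fold (1.16 to 1.80) and 1.24-fold (1.04 to 1.48) higher in them than in other endothelial nuclei, and *Rspo3*, on 5 and 1 UMIs in them, had ratios of 0.200 (0.0649 to 0.470) and 0.0277 (0.000699 to 0.155). *Ptprb* was 1.65-fold and 1.42-fold lower, and *Clec4g*, with ratios of 1.08 (0.729 to 1.55) and 1.04 (0.735 to 1.42), was not apart beyond counting error. *Stab1*, *Lyve1*, *Fcgr2b* and *Kdr* were likewise not apart beyond counting error in either library. *Flt4* had ratios of 0.611 (0.291 to 1.13) and 1.51 (1.06 to 2.10).

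Macrophage markers moved with *Kcnj2* in the library labelled Flox. Of the nuclei with *Kcnj2*, 21.7% there held a UMI of the 12 macrophage markers, against 7.14% of all endothelial nuclei, while in the library labelled HKO the shares were 10.4% and 9.93%. *Ptprc* and *Fyb*, which are genes of blood cells, were 12.7-fold (6.96 to 22.4) and 20.5-fold (10.5 to 39.5) higher in *Kcnj2* nuclei of the library labelled Flox, and 2.18-fold (0.999 to 4.25) and 1.53-fold (0.299 to 4.94) higher in those of the library labelled HKO. Without any nucleus that held a macrophage marker UMI, *Kcnj2* was at 18.5 and 74.2 CPM. The ratio was 4.01 (2.41 to 6.99), against 3.43 in all endothelial nuclei. *Ptprc* and *Fyb* are not among the 12 markers, and a nucleus without a marker UMI may still hold macrophage RNA. The part of macrophage RNA in the *Kcnj2* values was not tested.

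The third comparison was across the 7 nucleus types with at least 50 nuclei in each library. The 10 genes were nearly all endothelial. In the library labelled Flox 9 of 10 had their highest level in endothelial nuclei, where 10.6% of all genes did, and in that labelled HKO 10 of 10 did, where 10.7% of all genes did. *Ptprb*, *Kdr* and *Clec4g* helped choose those nuclei and count here only as a description. The exception was *Kcnj2*, which was higher in macrophage nuclei than in endothelial nuclei of the library labelled Flox, at 43.3 CPM (33.5 to 54.9) against 21.3 CPM (13.6 to 31.6). In the library labelled HKO macrophage nuclei had 49.5 CPM (40.8 to 59.6) and endothelial nuclei 73.0 CPM (58.8 to 89.5). Between libraries *Kcnj2* in macrophage nuclei had a ratio of 1.15 (0.839 to 1.57), against 3.43 in endothelial nuclei.

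*Edn1* was seen little outside endothelium. In macrophage nuclei it had 0 and 1 UMI, in B and T cell nuclei 0 in both libraries, and in hepatocyte nuclei 5 and 9 UMIs, or 0.108 and 0.323 CPM. Cholangiocyte nuclei had the next highest level, 3.87 CPM (0.0980 to 21.6) and 13.7 CPM (6.86 to 24.6), from 1 and 11 UMIs, which is 4.70% and 7.67% of its endothelial level.

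In macrophage nuclei, *Stab1*, *Stab2* and *Fcgr2b* were at larger parts of their endothelial level than the 5 other sinusoidal genes. *Stab1* was at 187 CPM (166 to 210) and 177 CPM (160 to 196) in macrophage nuclei, which is 19.1% and 19.8% of its endothelial level. *Stab2* was at 135 and 102 CPM, or 8.54% and 7.07%, and *Fcgr2b* at 154 and 91.1 CPM, or 9.17% and 6.29%. The 5 other sinusoidal genes were at 2.03% to 3.75% of their endothelial level in macrophage nuclei of the library labelled Flox and at 0.546% to 1.27% in those of the library labelled HKO. The sum of the 12 other endothelial markers in macrophage nuclei was 484 and 236 CPM, and *Ptprb* there was at 97.5 and 20.3 CPM, *Kdr* at 33.6 and 6.19 CPM and *Clec4g* at 27.1 and 3.98 CPM. The part of endothelial RNA in the macrophage values was not tested.

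*Fcgr2b* was at 222 CPM (136 to 343) and 272 CPM (171 to 412) in B cell nuclei, from 20 and 22 UMIs, its highest level outside endothelium among the 7 types compared, and B cells are known to use it as an inhibitory receptor. The 12 other endothelial markers summed to 821 and 755 CPM in these nuclei. In hepatocyte nuclei *Stab2* was at 16.1 and 15.6 CPM, 1.02% and 1.08% of its endothelial level, and *Stab1* at 0.894% and 0.691% of its own, while *Ptprb* was at 0.115% and 0.149%.

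**Figure D4:**
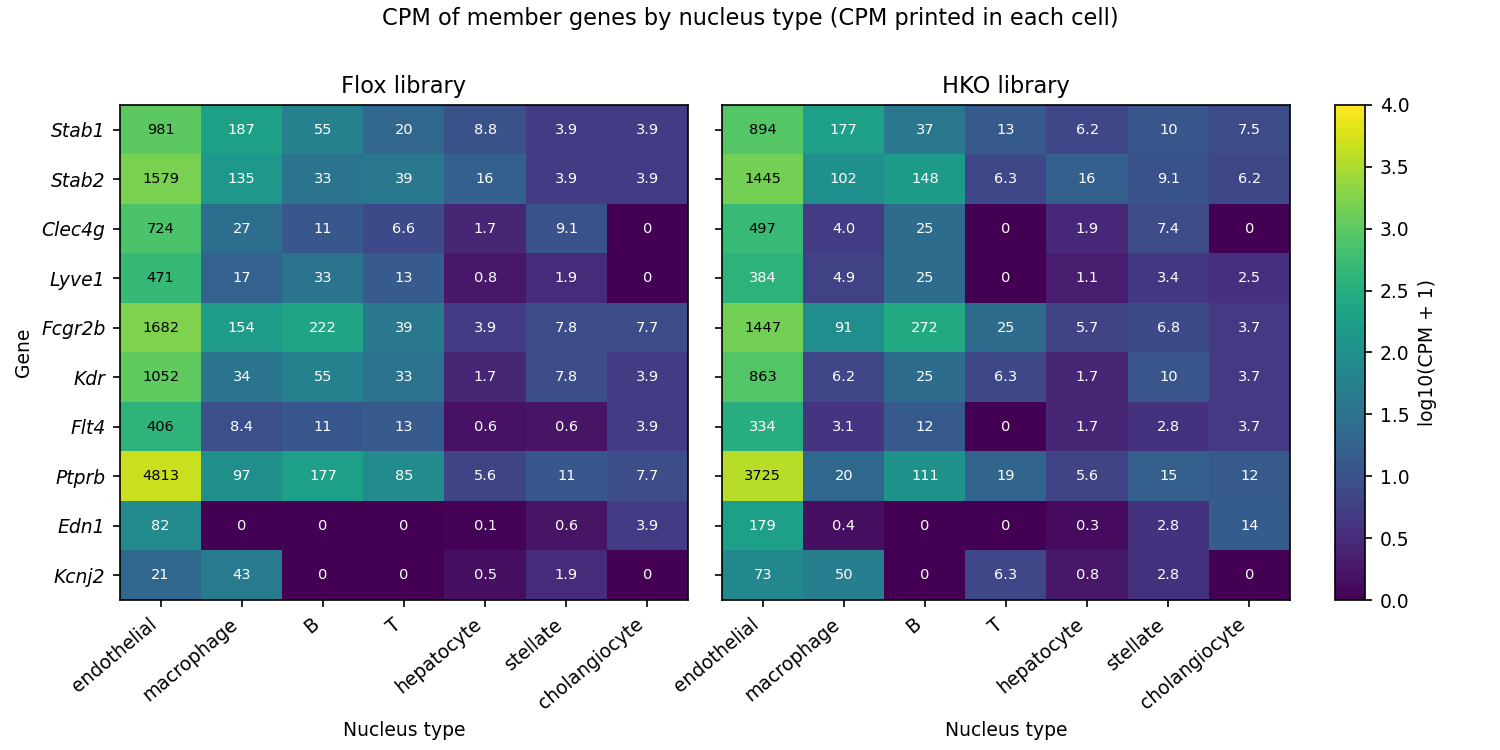
CPM of each gene by nucleus type in the library labelled Flox (left) and that labelled HKO (right), with the CPM printed in each cell and colour for log10(CPM + 1). The endothelial column is the highest for every gene except Kcnj2 in the Flox library, where macrophage nuclei have 43.3 CPM, and Stab1, Stab2 and Fcgr2b are also seen in macrophage nuclei.

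After thinning to 500 UMIs, the shares of endothelial nuclei with a UMI were nearest between libraries for *Flt4*, at 16.8% (14.3 to 19.6) and 16.4% (14.4 to 18.7), and for *Stab2*, at 48.2% (44.7 to 51.8) and 46.3% (43.5 to 49.2). *Clec4g* was at 30.2% (27.0 to 33.6) and 22.6% (20.3 to 25.1), and *Ptprb* at 88.8% (86.4 to 90.9) and 82.7% (80.5 to 84.8). These were the 2 sinusoidal genes whose intervals did not overlap at this setting, where nuclei below 500 UMIs kept their depth. In nuclei thinned to 1000 UMIs *Flt4* was at 32.4% (28.9 to 36.1) and 26.9% (23.2 to 30.8), and *Fcgr2b*, at 73.3% (69.8 to 76.6) and 64.7% (60.6 to 68.7), also had intervals that did not overlap. Without thinning the *Clec4g* shares were 55.6% and 36.0%, a wider gap at unequal depth. The shares in hepatocyte nuclei were 0.135% and 0.235% for *Clec4g* and 0.236% and 0.513% for *Ptprb*.

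The other genes of the same pathways came from 11 lists with 93 genes besides the 10, of which 70 had at least 20 UMIs in endothelial nuclei. Of the 70, 8 were at least 1.5-fold higher in the library labelled HKO (11.4%) and 9 at least 1.5-fold lower (12.9%), against 7.3% and 11.6% of all genes, and their median log2 ratio was -0.15. At a 2-fold call 1 was higher and 0 were lower.

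The list of 14 other sinusoidal genes was lower by its median, -0.21, against -0.05 over all genes. Its members past the fold were *Cd36*, a fatty acid and lipoprotein receptor, which was higher at 617 and 970 CPM (ratio 1.57, 1.43 to 1.73), and *Wnt2*, *Plxnc1* and *Ehd3*, which were lower. *Wnt2*, a Wnt ligand of central sinusoids, was at 143 and 84.8 CPM (ratio 0.595, 0.462 to 0.765). *Plxnc1*, a semaphorin receptor, was at 412 and 262 CPM (ratio 0.635, 0.550 to 0.733), and *Ehd3*, an endocytic trafficking protein, at 1203 and 801 CPM (ratio 0.666, 0.613 to 0.723). The list of scavenger receptors, 5 of whose 11 tested members are among the 10 genes, had a median of -0.15, with *Cd36* its only gene past the fold.

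The 7 genes of central-side sinusoids had a median of -0.52, against -0.05 over all genes. The median gene was *Rspo3*, which is also on the vascular list, at 609 and 425 CPM (ratio 0.698, 0.622 to 0.782). In the central-side list 3 genes passed the fold: *Wnt2*, *Wnt9b* (25.7 and 16.7 CPM, ratio 0.648, 0.351 to 1.18) and the connexin gene *Gja4* (49.6 and 30.1 CPM, ratio 0.608, 0.391 to 0.934). The portal-side list had a median of 0.07, with *Cd36* higher and *Adgrg6*, an adhesion receptor, lower at 107 and 66.6 CPM (ratio 0.622, 0.465 to 0.828). The list of vascular and capillary genes had a median of 0.03, with 4 of 15 higher: *Vwf*, *Gja5*, *Cd34* and *Bmx*. *Gja5*, an arterial connexin, was at 15.9 and 33.3 CPM (ratio 2.09, 1.18 to 3.86). *Cd34*, at 17.7 and 28.5 CPM, and *Bmx*, at 9.74 and 15.9 CPM, had intervals of the ratio that included 1.

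In the endothelin list 3 of 7 genes had enough UMIs, and only *Edn1* passed the fold. *Ece1*, the enzyme that cleaves the endothelin precursor, was at 282 and 346 CPM (ratio 1.23, 1.06 to 1.42), and *Ednrb*, the receptor that endothelium carries, at 63.8 and 80.9 CPM (ratio 1.27, 0.929 to 1.74). *Edn2* and *Edn3* had no UMI in endothelial nuclei. The receptor *Ednra* was seen in stellate nuclei, at 460 and 318 CPM, and had 3 and 2 UMIs in endothelial nuclei. *Ednrb* in stellate nuclei was at 463 and 180 CPM, so both receptor genes had lower values there in the library labelled HKO. The stellate markers summed to 13808 and 9075 CPM in these nuclei, and their part in those values was not tested.

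Of the vessel potassium channels, 3 of 9 genes had enough UMIs. *Abcc9*, which encodes the sulfonylurea receptor subunit of the ATP-sensitive channel, was at 60.2 and 109 CPM (ratio 1.80, 1.34 to 2.45), while its pore gene *Kcnj8* was at 15.1 CPM in both libraries, with an interval of the ratio from 0.492 to 2.05. Among the nitric oxide and other vasoactive genes *Nos3*, the endothelial nitric oxide synthase, was at 54.0 and 61.9 CPM (ratio 1.14, 0.808 to 1.63). *Prkg1*, the cyclic GMP kinase, was lower at 74.4 and 39.6 CPM (ratio 0.533, 0.368 to 0.765), and *Ace*, the angiotensin-converting enzyme, was higher past the fold on 7 and 14 UMIs, with an interval of 0.676 to 5.24. The list's median was -0.26.

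The VEGF and angiopoietin list, which includes *Kdr*, *Flt4* and *Ptprb*, had a median of -0.28 over 12 genes, against -0.05 over all genes. *Flt1*, the VEGF receptor that also acts as a decoy, passed the fold at 584 and 369 CPM (ratio 0.632, 0.560 to 0.712). *Tek*, the Tie2 gene on whose product *Ptprb* acts, was at 337 and 249 CPM (ratio 0.738, 0.633 to 0.859). The ligand gene *Vegfa* was at 968 and 862 CPM in cholangiocyte nuclei and 761 and 812 CPM in hepatocyte nuclei, against 93.0 and 113 CPM in endothelial nuclei. In the list of activation genes, *Ackr1* was higher and *Ccl2* lower past the fold, both on intervals that included 1, and the median was -0.03. The lymphatic list had 1 gene with enough UMIs, *Prox1*, at 24.8 and 25.4 CPM, against 557 and 497 CPM in hepatocyte nuclei, and the part of hepatocyte RNA in its endothelial values was not tested.

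**Figure D5:**
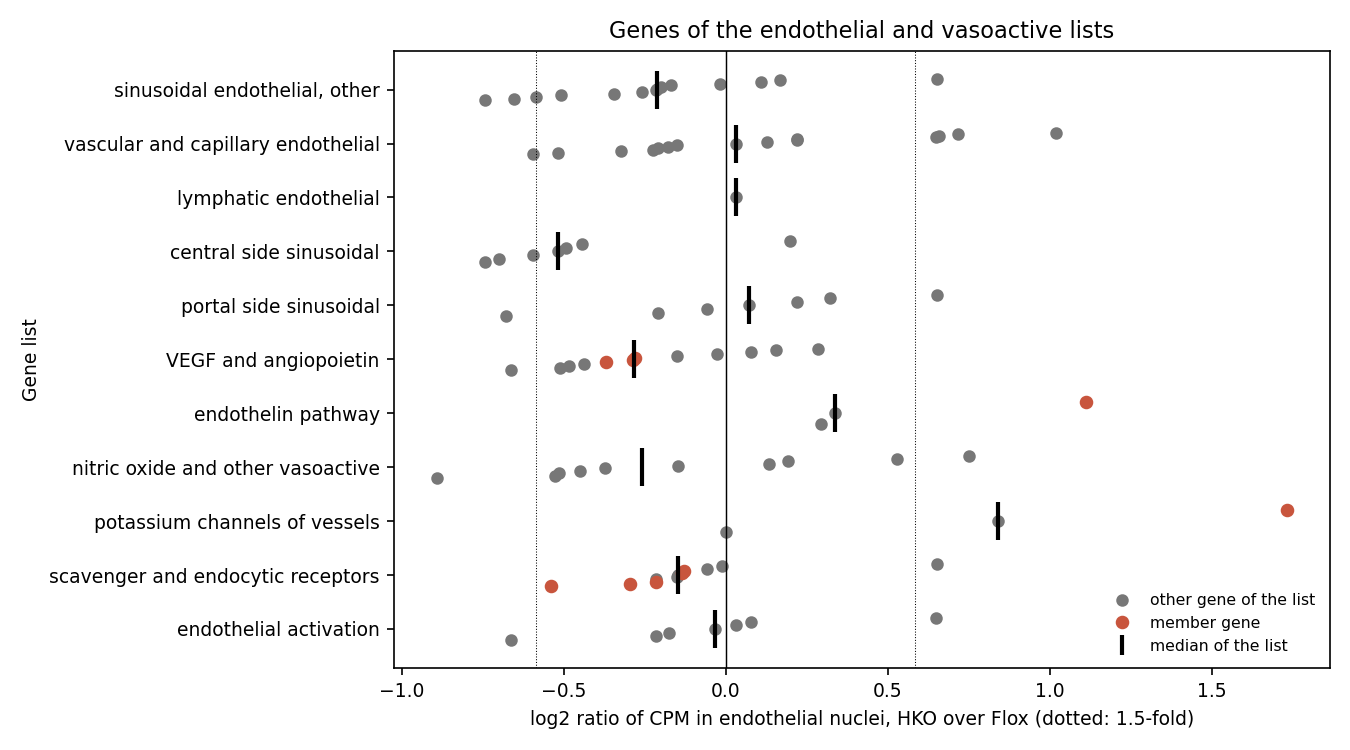
Log2 ratio of CPM in endothelial nuclei, HKO over Flox, of each gene with at least 20 UMIs in 11 gene lists (grey, or red for the 10 genes), with the median of each list as a black bar and dotted lines at a 1.5-fold difference. The central-side list has the lowest median, -0.52, and Edn1 and Kcnj2 are the points farthest to the right.

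The genes most like each pattern were found by Pearson's r of log2(CPM + 1) over 16 points, which are the nucleus types with endothelial nuclei split by *Vwf*, in both libraries. The points share libraries and depth, and r is given as a description. Of 6870 genes, those most like *Edn1* were *Megf6* (0.977), *Kif26a* (0.970), *Csgalnact1* (0.957), *Hspa12b* (0.956) and *Fbln2* (0.953). Those most like *Kcnj2* had lower values, from *Cxcl9* (0.841), *Gatm* (0.821), *Gm43914* (0.813) and *Tbc1d23* (0.809) to *Ipo9* (0.796). The mean of the 8 sinusoidal genes was most like *Btnl9* (0.976), *Gm46565* (0.973), *Ushbp1* (0.967), *Emcn* (0.961) and *Adgrf5* (0.958). The log2 ratios between libraries of the genes most like *Kcnj2* lay between -0.13 and 0.16, against 1.73 for *Kcnj2*. Those of the genes most like *Edn1* lay between -0.20 and 0.84, against 1.11 for *Edn1*.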

How the data were processed

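Gene expression was measured by snRNA-seq in 2 pooled mouse liver libraries, 1 per group. The authors deposited raw UMI counts per gene and barcode, made with Cell Ranger 8.0.1 on mm10 (GRCm38) without intronic reads, as their methods state, and not normalized. The deposited counts were used as they were. Nuclei with at least 300 genes were kept, and the highest Scrublet scores in scanpy 1.11.5 (0.8% per 1000 barcodes) were removed, which took 701 and 920 barcodes. Each nucleus was given the type under which its marker UMIs were most likely, with at least 2 UMIs of that type's own markers. Clusters used 3000 variable genes without the 10 genes, 15 components and a resolution of 0.5. CPM has exact Poisson intervals, ratios exact conditional binomial intervals and shares exact Clopper-Pearson intervals. Log2 ratios carry a pseudocount of 1 CPM, and calls needed 20 UMIs and a 1.5-fold difference. A gene with 0 UMIs is given the limit of 3 counts. Where libraries were rescaled, TMM factors came from edgeR 4.0.16 and size factors from DESeq2 1.42.0, and no test of either was run.

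The 10 genes, the gene lists and the markers were chosen with earlier results of these data known. Genes named are the 10, listed genes past 1.5-fold, *Vwf*, and the 5 most like each pattern. *Rspo3*, *Bmp4*, *Ptprc*, *Fyb*, and the listed genes named below the fold, were named after their values were seen. The alternatives of clusters without nuclei of other types, nuclei without macrophage UMIs, nuclei outside the cluster led by *Vwf*, scaling to endothelial markers and unthinned shares were also chosen after seeing the data. The intervals were tested on simulated data.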

Additional observations from a re-analysis of the deposited data

How the results depend on the processing

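No paired analysis was possible because each group is 1 library, and no library could be left out. Of 240 values of single genes under alternatives, 203 kept their direction and moved by less than their counting interval, 23 moved by more and 14 changed sign. Changes of sign came from 3 alternatives, and their cause was not tested. With every nucleus that held a UMI of *Ptprb*, *Kdr* or *Clec4g* kept, the log2 ratios were 0.40 for *Stab1*, 0.38 for *Stab2*, 7.1e-05 for *Clec4g*, 0.23 for *Lyve1*, 0.30 for *Fcgr2b*, 0.24 for *Kdr*, 0.26 for *Flt4* and 0.19 for *Ptprb*, and the median of the 10 genes, -0.25 as reported, was 0.28. In unsupervised clusters they were 0.17 for *Stab1*, 0.13 for *Stab2*, 0.047 for *Fcgr2b* and 0.023 for *Flt4*, and the median was 0.035. Scaled to the 12 other endothelial markers, *Stab1* and *Stab2* were at 0.0063 and 0.013 and the median was -0.11. The 10 genes lower past 1.5-fold in the library labelled HKO became 1, *Clec4g*, from 0 when nuclei were chosen by markers outside the 10 and when nuclei typed otherwise were left out of clusters. The genes higher with *Vwf* in the library labelled HKO became 1 from 2 after thinning to 500 UMIs, where *Ptprb* was at 0.41. At a 2-fold call the other pathway genes higher and lower became 1 and 0, from 8 and 9. Depth limited *Kcnj2*, with 24 UMIs in the library labelled Flox.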
